A study of Mus musculus with 3 samples.

Results

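Transcripts of 9 genes that write, maintain, read or remove DNA methylation were measured in epithelial cells sorted from mouse back skin: Dnmt1, Dnmt3a, Dnmt3b, Uhrf1, Tet1, Tet2, Tet3, Tdg and Mbd2. The genes were chosen by symbol, and all 9 were found among the 44548 genes of the table. Polyadenylated RNA was sequenced from 3 libraries of 1 group, all from wild-type animals 56 days old in second telogen, the resting phase of the hair cycle. The cells were released from skin with trypsin and sorted as live cells, labelled integrin alpha6-positive and Sca1-negative. The labels name an antibody to integrin alpha6 and none to Sca1, speak of duplicate collections although there are 3 libraries, and do not say which libraries share mice. The spread between libraries, and every p-value based on it, may therefore be partly technical.

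DNA methylation in mammals is placed mostly on cytosines followed by guanine, the CpG dinucleotide. Dnmt3a and Dnmt3b set the mark on unmethylated DNA, and Dnmt1 copies it to the new strand after replication, guided by Uhrf1, which binds half-methylated CpG sites. Tet1, Tet2 and Tet3 oxidise 5-methylcytosine, Tdg cuts out the further oxidised bases, and Mbd2 binds methylated CpG and brings the NuRD repressor complex to it. In the epidermis, Dnmt1 and Uhrf1 are known for keeping progenitors undifferentiated, and Dnmt3a for its action at enhancers of epidermal stem cells.

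The promoters of these genes are shown first, since CpG is what the proteins act on and their own start sites differ widely in CpG number. RefSeq (GRCm38.p6) promoters were matched for 8 of the 9 genes, in 13 entries because some genes have several start sites. In the 250 bases before the start, the 13 entries held a median of 19 CpG, against 6 in 32851 promoters of the table (middle 50% from 2 to 16). Tet2 had the most, with 51 CpG, more than 99.9% of all promoters in the table held. The upstream start of Dnmt1 had the fewest, with 2. The downstream start of Uhrf1 had 30 CpG and is shown because it also holds a motif of the E2F type. Each sequence below is the 250 bases before a start, 5′ to 3′ along the gene, with CpG in capitals. Tet2 lies at chr3:133544391-133544640 on the minus strand, Uhrf1 at chr17:56304063-56304312 on the plus strand and Dnmt1 at chr9:20959889-20960138 on the minus strand.
Tet2: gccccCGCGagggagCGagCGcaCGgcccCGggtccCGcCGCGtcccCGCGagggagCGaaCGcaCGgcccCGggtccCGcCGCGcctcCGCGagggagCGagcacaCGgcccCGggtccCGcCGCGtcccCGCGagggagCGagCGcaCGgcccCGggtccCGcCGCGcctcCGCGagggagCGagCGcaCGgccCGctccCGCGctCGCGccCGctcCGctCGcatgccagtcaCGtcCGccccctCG
Uhrf1: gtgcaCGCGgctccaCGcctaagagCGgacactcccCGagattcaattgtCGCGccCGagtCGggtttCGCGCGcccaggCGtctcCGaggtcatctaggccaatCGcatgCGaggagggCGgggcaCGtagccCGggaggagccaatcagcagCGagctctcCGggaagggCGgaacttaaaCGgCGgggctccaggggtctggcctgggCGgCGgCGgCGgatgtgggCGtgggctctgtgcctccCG
Dnmt1: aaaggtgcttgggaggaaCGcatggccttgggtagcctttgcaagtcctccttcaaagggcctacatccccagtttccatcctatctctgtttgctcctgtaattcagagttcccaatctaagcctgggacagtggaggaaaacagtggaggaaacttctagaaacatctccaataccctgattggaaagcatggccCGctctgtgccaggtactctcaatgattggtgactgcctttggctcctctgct

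The E2F-type motifs TTTCGCGC and TTTGGCGC, searched on both strands and each holding a CpG of its own, were found in 0.654% of all promoters and in 2 of the 13 entries, the start of Uhrf1 shown above and another start of Dnmt1 with 26 CpG. The motif GGGCGG was found in 10 of the 13 entries and in 32.7% of all promoters, and CCAAT in 6 of the 13 and in 33.8%. These are matches of letters in a window, and the gene-level counts do not tell which start was used.

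Depth was 29283936 counts for replicate 1, 35264901 for replicate 2 and 39198620 for replicate 3. Levels are given as TPM, in which counts are divided by gene length and scaled to the same total in each library, so that genes can be compared. A gene is called detected below where its average over the libraries is 1 TPM or more. The cell type label was checked against marker genes. All 10 hair follicle stem cell markers and all 6 basal keratinocyte markers were detected, and so were 6 of 6 suprabasal keratinocyte, 4 of 6 sebaceous gland, 4 of 6 melanocyte, 2 of 6 fibroblast, 2 of 7 immune and 0 of 5 endothelial markers, and Lum, Lyz2, Cdh5, Cldn5 and Emcn had 0 counts in every library. Summed TPM over replicates 1 to 3 was 17.99, 45.3 and 40.4 for the fibroblast, 11.1, 19.9 and 13.04 for the immune, 59.96, 41.7 and 38.7 for the melanocyte and 149.9, 157 and 183 for the sebaceous markers. In bulk RNA, fewer cells of a type and less RNA per cell cannot be told apart.

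Dnmt1 was the leading DNA methyltransferase transcript. Dnmt1 (ENSMUSG00000004099, GRCm38 chromosome 9, 20907209 to 20959888, minus strand) averaged 22.1 ± 2.22 TPM (SD, n = 3), with 24.6, 21.5 and 20.3 in replicates 1, 2 and 3 (1955, 2174 and 2306 counts). The 3 values lay close together and above those of both de novo enzymes in every library. Dnmt3a (ENSMUSG00000020661, chromosome 12, 3806007 to 3914443, plus strand) averaged 5.73 ± 1.47 TPM, with 7.04, 6.03 and 4.13 in the 3 libraries (1262, 1374 and 1061 counts). Dnmt3b (ENSMUSG00000027478, chromosome 2, 153649450 to 153687730, plus strand) averaged 2.63 ± 1.30 TPM, with 3.54, 1.14 and 3.20 in the 3 libraries (195, 80 and 252 counts). Replicate 2 was low for Dnmt3b, and as a share of all counts its value of 2.27 CPM (counts scaled to the library total, 95% Wilson interval 1.82 to 2.82) lay apart from 6.66 (5.79 to 7.66) and 6.43 (5.68 to 7.27) in replicates 1 and 3. These intervals cover counting error only. Dnmt1 made up 72.8% ± 2.60 of the summed TPM of the 3 enzymes, Dnmt3a 18.7% ± 3.23 and Dnmt3b 8.55% ± 4.03. Dnmt3l, a cofactor of the de novo enzymes that has no catalytic activity, had 3, 3 and 0 counts.

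Uhrf1 (ENSMUSG00000001228, chromosome 17, 56303321 to 56323486, plus strand) averaged 10.8 ± 0.488 TPM, with 10.2, 10.9 and 11.2 in the 3 libraries (470, 636 and 735 counts). In the deposited TPM it was the only one of the 9 genes that was lowest in replicate 1. After rescaling with TMM factors (described below) Mbd2 was lowest there too, and with DESeq2 size factors Mbd2, Dnmt1 and Tdg were. Dnmt1 lay above its partner Uhrf1 in 3 of 3 libraries, by 1.19, 0.92 and 0.80 on the log2(TPM + 1) scale.

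Tet3 carried most of the Tet transcripts. Tet3 (ENSMUSG00000034832, chromosome 6, 83362373 to 83459084, minus strand) averaged 15.2 ± 4.12 TPM, with 19.3, 15.1 and 11.1 in the 3 libraries (3475, 3446 and 2850 counts). Tet2 (ENSMUSG00000040943, chromosome 3, 133463679 to 133545139, minus strand) averaged 4.21 ± 1.61 TPM, with 6.06, 3.36 and 3.21 in the 3 libraries (1102, 775 and 834 counts). Tet1 (ENSMUSG00000047146, chromosome 10, 62804570 to 62908996, minus strand) averaged 0.883 ± 0.642 TPM, with 1.60, 0.705 and 0.348 in the 3 libraries (253, 142 and 79 counts). Each of the 3 was highest in replicate 1 and lowest in replicate 3. Tet3 made up 75.4% ± 3.60 of the summed Tet TPM, Tet2 20.6% ± 2.71 and Tet1 3.99% ± 1.79. The share of Tet1 was 5.92%, 3.68% and 2.38% in replicates 1 to 3. Without replicate 1 the mean of Tet1 was 0.527 TPM. The summed TPM of the 3 methyltransferases, 35.2, 28.7 and 27.6, was above that of the 3 Tet genes, 26.97, 19.13 and 14.6, in each library.

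Tdg, the glycosylase that follows Tet oxidation (ENSMUSG00000034674, chromosome 10, 82629828 to 82650799, plus strand), averaged 14.3 ± 1.47 TPM, with 16.02, 13.5 and 13.5 in the 3 libraries (928, 991 and 1117 counts). It shares 367 bases of gene span with Glt8d2 on the opposite strand, which had 420, 552 and 622 counts, and without a stated strand setting reads from the shared stretch cannot be assigned. The processed pseudogene Tdg-ps had 1, 0 and 2 counts. Antisense genes of the others had few counts: Dnmt3bos had 12, 23 and 0 counts, B230319C09Rik, opposite Tet3, had 12, 13 and 13, and Dnmt3aos had 0. Mbd2 (ENSMUSG00000024513, chromosome 18, 70568189 to 70626131, plus strand) averaged 78.8 ± 3.39 TPM, with 82.7, 76.5 and 77.3 in the 3 libraries (2866, 3367 and 3832 counts). Mbd2 was the highest of the 9 genes in every library.

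**Figure D1:**
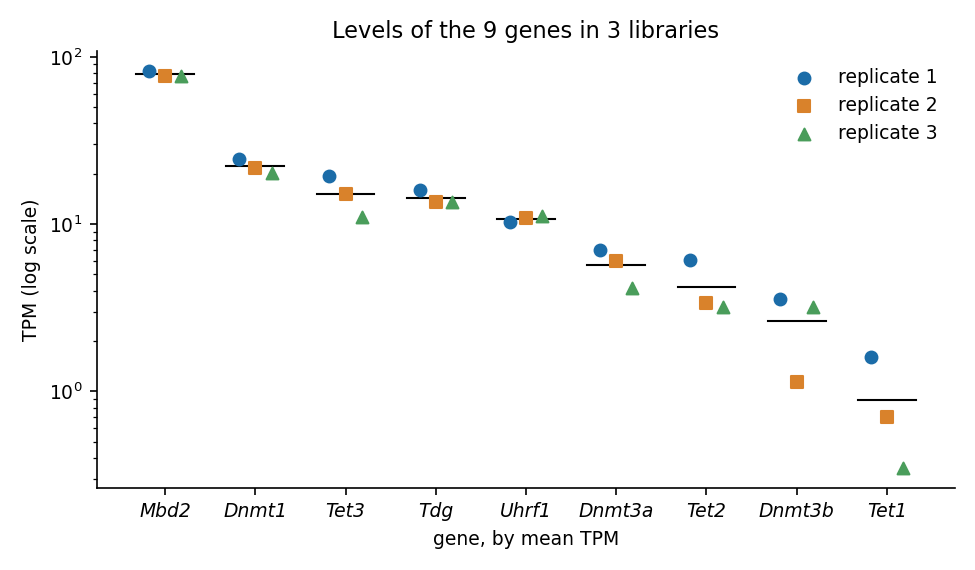
TPM (log axis) of the 9 genes in each library, ordered by mean TPM, with a bar at the mean. Mbd2 stood above the rest in all 3 libraries and Tet1 below the rest, with replicate 1 at 1.60 TPM and replicate 3 at 0.348 TPM.

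By mean TPM the order was Mbd2, Dnmt1, Tet3, Tdg, Uhrf1, Dnmt3a, Tet2, Dnmt3b and Tet1. Tet3 and Tdg did not differ beyond their spread, with a difference of 0.83 TPM, and changed places in replicate 3. There Tet3, with 11.07 TPM, also lay below Uhrf1, with 11.19. Dnmt3a and Tet2 overlapped in range, as did Tet2 and Dnmt3b, and Dnmt3b and Tet1, although within each library the order of these 4 genes was the same. The other neighbours had ranges that did not overlap. At the limit of 1 TPM, 8 of the 9 genes were detected, against 30.7% of all genes and 54.9% of protein-coding genes. The mean of Tet1 lay just under this limit and reached 1.15 TPM without replicate 3. Among the 13663 detected genes, Mbd2 lay at percentile 88.5, Dnmt1 at 62.1, Uhrf1 at 42.2 and Dnmt3b at 15.2.

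Ratios between paralogs and partners were compared within each library on the log2(TPM + 1) scale, in 7 pairs. Dnmt1 exceeded Dnmt3a by 1.80 ± 0.22 and Dnmt3b by 2.74 ± 0.57 (mean ± SD, n = 3). Tet3 exceeded Tet2 by 1.64 ± 0.21 and Tet1 by 3.12 ± 0.14, and Tet2 exceeded Tet1 by 1.48 ± 0.15. Dnmt1 exceeded Uhrf1 by 0.97 ± 0.20. All 6 differences were larger than their SD. That of Dnmt3a and Dnmt3b, 0.94 ± 0.72, exceeded its SD by least and ranged from 0.29 in replicate 3 to 1.71 in replicate 2. In all 7 pairs the first-named gene was higher in 3 of 3 libraries. The two-sided exact sign-flip permutation p was 0.25 for each pair (0.25 after Benjamini-Hochberg adjustment over the 7), which is the smallest p that 3 libraries allow, so the design cannot reach a p under 0.05.

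The genes differed in how much they varied between libraries. In the deposited TPM the SD of log2(TPM + 1) was 0.06 for Uhrf1 and for Mbd2, where the median SD of protein-coding genes between 0.8 times their level and the inverse of that was 0.29 and 0.17. It was 0.14 for Dnmt1 and for Tdg, 0.33 for Dnmt3a, 0.38 for Tet3, 0.42 for Tet2, 0.48 for Tet1 and 0.60 for Dnmt3b. For Dnmt3b the median SD at its level was 0.36. The small spreads of Uhrf1 and Mbd2 depended on scaling. With TMM factors the range over the libraries went from 0.12 to 0.36 for Uhrf1 and from 0.11 to 0.17 for Mbd2. That of Tdg went from 0.23 to 0.02 and that of Dnmt1 from 0.27 to 0.06. The biological coefficient of variation, estimated with edgeR from the counts, was 0.186 for Mbd2 and for Dnmt1, 0.261 for Uhrf1 and as high as 0.456 for Dnmt3b and 0.502 for Tet1, with a median of 0.271 over 13517 genes. The median over the 9 genes was 0.235, and 0.137 without replicate 1. These per-gene estimates are drawn towards a trend fitted over all tested genes. That trend also fell without replicate 1, from 0.227 to 0.107 at Dnmt1 and from 0.223 to 0.106 at Tet3.

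As deposited, 8 of the 9 genes were highest in replicate 1, against 59.6% of 13663 genes, and this count depended on scaling. Rescaling with edgeR's TMM factors moved replicates 1, 2 and 3 by -0.17, 0.07 and 0.10 on the log2 scale, and then 3 of the 9 genes were highest in replicate 1, against 42.8% of genes. Those 3 were Tet1, Tet2 and Tet3, also with DESeq2 size factors. On the TMM scale Tet2 had values of 5.38, 3.53 and 3.43, and Tet3 17.1, 15.9 and 11.8. Uhrf1 then had 9.09, 11.5 and 12.0, and Dnmt1 21.8, 22.7 and 21.7. On the log2(TPM + 1) scale 0 of the 9 genes lay more than 1 above or below both other libraries in replicate 1, which 10.6% of detected genes did on the high side and 2.26% on the low side. With a limit of 0.58 in its place Tet2 did in the deposited TPM, and so did Tet1, whose average is under 1 TPM. On the TMM scale neither did. The share of all genes past the limit of 0.58 was not counted. The added 1 TPM shrinks the differences of a gene as low as Tet1, which had 8.64 CPM (95% Wilson interval 7.64 to 9.77) in replicate 1 against 4.03 (3.42 to 4.75) and 2.02 (1.62 to 2.51) in replicates 2 and 3.

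**Figure D2:**
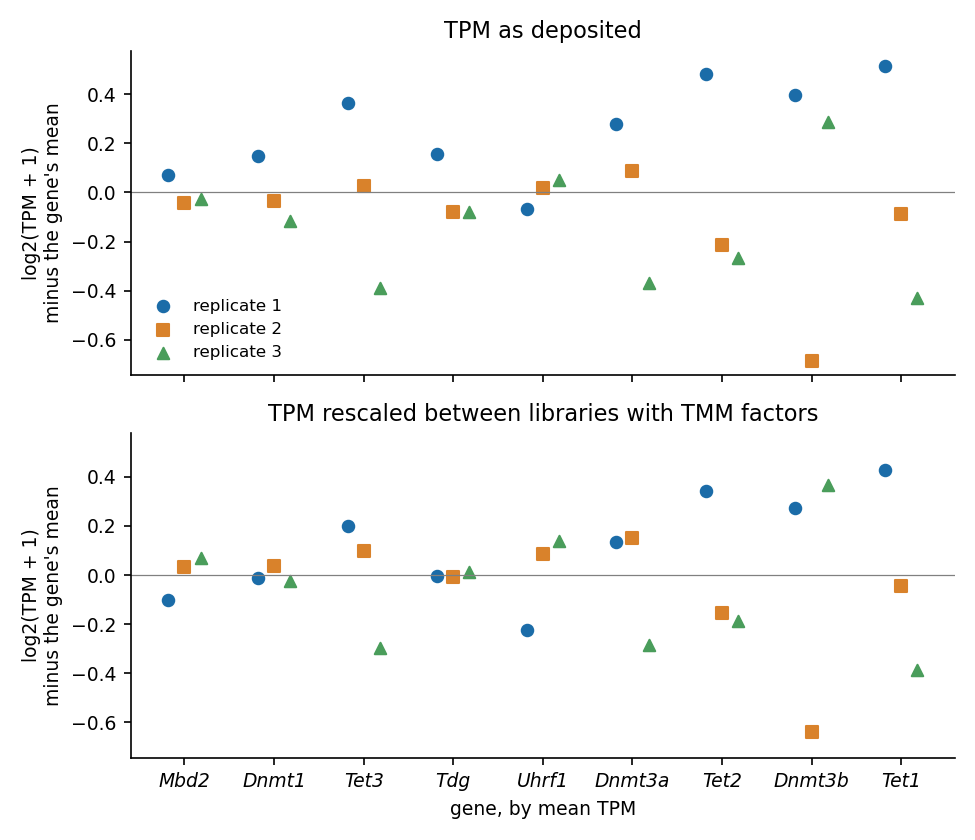
Deviation of each library from the gene's mean of log2(TPM + 1), for TPM as deposited (top) and rescaled with TMM factors (bottom). Tet1, Tet2 and Tet3 were highest in replicate 1 on both scales, whereas Dnmt1, Tdg and Mbd2 were not after rescaling, and Dnmt3b was low in replicate 2 on both.

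Other values moved with the Tet genes between libraries. Of 12 genes induced by tissue dissociation, 11 were highest in replicate 1, with summed TPM of 27325, 17664 and 12604 in replicates 1 to 3. The summed TPM of the suprabasal keratinocyte markers had the reverse order, with 3315, 4475 and 7181. Krt1, Krt10 and Lor rose in this order, but Ivl was highest in replicate 1, and Krtdap and Sbsn were lowest in replicate 2. Gene length also went with it. After TMM scaling, replicate 1 exceeded the mean of the others by a median of 0.26 log2 units over 311 detected protein-coding genes of 14000 bases and longer, and by -0.05 over 9411 genes under 7000 bases. The same difference was 0.64 for Tet1, 0.51 for Tet2, 0.30 for Tet3 and 0.20 for Dnmt3a, all in the longest class, and 0.41 for the shorter Dnmt3b, which was low in replicate 2. The part of dissociation, suprabasal cells or length in the Tet values was not tested. Replicate 2, where Dnmt3b was low, was also the lowest library for Hells, a helicase needed for DNA methylation, with 3.54, 1.71 and 3.16 TPM, and for Rrm2, a subunit of ribonucleotide reductase, with 36.5, 25.4 and 33.7 TPM. The 12 proliferation genes had a summed TPM of 144, 116 and 133, but did not share 1 lowest library. Of them Mcm6, Ccnb1, Mki67 and Aurkb were also lowest in replicate 2. By contrast, Mcm2, Mcm3 and Mcm5 were lowest in replicate 1, and Top2a, Ccna2, Cdk1 and Birc5 in replicate 3. The share of all genes lowest in replicate 2 was not counted.

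Of 96 detected genes on the other gene lists, proliferation and dissociation genes included, those with the most similar deviations over the 3 libraries were named by Euclidean distance of log2(TPM + 1) centred per gene. For Uhrf1 they were Trp63, the master transcription factor of stratified epithelium, at a distance of 0.03, and Idh3a at 0.05. For Dnmt1 they were Smug1 at 0.03 and Kdm2a at 0.06, for Tet2 Polb and Mbd4 at 0.02 each, and for Tet3 Ctcf at 0.04 and Junb at 0.07. With 3 libraries such likeness is a description only.

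The authors' deposited table also held a log2 fold change and adjusted p-value per gene, read from the column names as a comparison of these libraries with a bulge group that was not analysed here. All 2555 genes with 0 counts in the 3 libraries and a deposited fold change carried a minus sign, so negative values mean lower in the alpha6-positive, Sca1-negative cells. By the authors' deposited table, 5 of the 9 genes were lower at an adjusted p-value under 0.05, against 31.9% of 20264 genes, and 0 were higher, against 23.6%. The tool behind these values was not stated, and only adjusted p-values were used. Tet2 had a log2 fold change of -3.00 (adjusted p = 8.02e-39) and Tet1 of -3.05 (6.49e-14) in the authors' deposited table. In the same authors' deposited table Tet3 had -1.47 (adjusted p = 5.39e-11), Dnmt3a -1.01 (0.000345) and Dnmt1 -0.51 (0.0139). The other 4 did not pass in the authors' deposited table: Dnmt3b had -0.97 (adjusted p = 0.0696), Mbd2 0.43 (0.0528), Uhrf1 0.54 (0.186) and Tdg 0.37 (0.159). The lower genes were thus all 3 Tet genes and 2 of the 3 methyltransferases, while Uhrf1, Tdg and Mbd2 had positive values that did not pass.

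Gene length moved with these calls. By the authors' deposited table, 80% of 410 genes of 14000 bases and longer were lower and 0.732% higher, with a median log2 fold change of -1.68. Of 2525 genes from 7000 to under 14000 bases, 52.7% were lower and 9.7% higher, and of 17329 shorter genes 27.8% were lower and 26.1% higher. Tet1, Tet2, Tet3 and Dnmt3a fall in the longest class, with 14710, 16870, 16695 and 16642 bases. Dnmt1 has 7377 bases, and the 4 genes that did not pass have 3214 to 5374. Each fold change of the authors' deposited table was therefore set beside the median of scored genes of like length, from 0.8 times its length to the inverse of that. For Tet2 that median was -1.58 over 390 genes, so that it lay 1.42 lower, and 6.15% of those genes lay lower still. For Tet1 it was -1.41 over 584 genes, so that it lay 1.65 lower, and 4.11% of those genes lay lower still. Tet3 lay 0.10 above the median of its length (-1.57), Dnmt3a 0.56 above its own (-1.57) and Dnmt1 0.03 above its own (-0.54). Dnmt3b lay 0.84 below its median, and Uhrf1, Tdg and Mbd2 lay 0.54, 0.55 and 0.24 above theirs. Against detected genes of like length alone, Dnmt1 (-0.07) and Mbd2 (-0.20) lay below the median, and the other 7 kept their side. Across detected genes, Spearman's rho of fold change and length was -0.39 (n = 13505 genes, which share libraries and are not independent), and 0.04 over all 20264. The part of length in these fold changes was not tested.

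**Figure D3:**
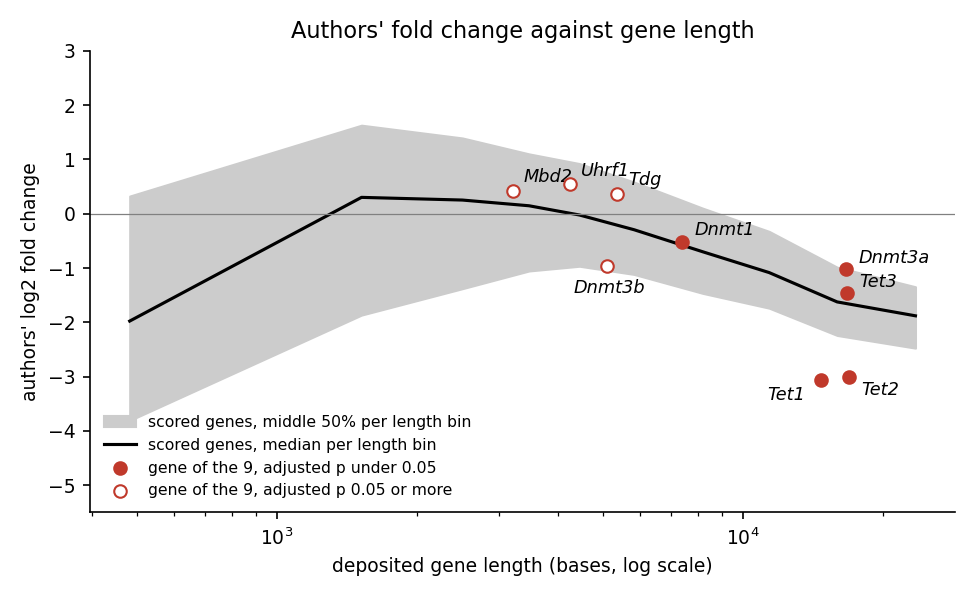
The authors' log2 fold change (vertical) against deposited gene length in bases (log axis), with the median (line) and middle 50% (band) of scored genes per length bin and the 9 genes as points, filled where the adjusted p-value was under 0.05. Tet1 and Tet2, near -3, lie below the band, whereas Tet3 and Dnmt1 lie near the median of genes as long as they are and Dnmt3a, at -1.01, near the upper edge of the band.

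A value headed H3K27me3, a histone mark tied to Polycomb repression, was 0 for all 9 genes in the authors' deposited table. It was above 0 for 11.2% of protein-coding genes and for 3.52% of detected ones. The authors' deposited score, which multiplies the fold change by that value plus 1 and by the negative log10 of its adjusted p, ranged from -114 for Tet2 to 0.545 for Mbd2.

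The 83 other genes of the pathway, in 8 lists with Mbd4 in 2 of them, were read in the same way, and 70 were detected. By the authors' deposited table, 28 of 76 were higher (background 23.6%) and 21 lower (background 31.9%), with a median log2 fold change of 0.14 against -0.36 over all scored genes. Length again went with direction: of 25 genes of 7000 bases and longer 13 were lower and 4 higher, and of 51 shorter ones 8 were lower and 24 higher. The same backgrounds apply to each list below. Not every gene had an adjusted p-value: 6 of 8 de novo partners did, and 11 of 12 S-adenosylmethionine genes. So did 10 of 12 Tet cofactors, 15 of 16 base excision genes and 9 of 10 methyl-CpG readers.

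All 8 maintenance partners of Dnmt1 and Uhrf1 were detected. Pcna, the replication clamp, had 103 ± 38.4 TPM and Cdca7, which works with Hells, 66.2 ± 13.6 TPM, while Hells was lowest with 2.80 ± 0.964 TPM. Of these 8, the authors' deposited table had 1 higher (Cdca7, log2 fold change 2.05, adjusted p = 2.06e-18) and 3 lower, most of all Uhrf2, the paralog of Uhrf1, with -1.35 (2.93e-06). Of the 8 de novo partners 4 were detected. Trp63 had 273 ± 14.1 TPM and Trim28, the corepressor of KRAB zinc finger proteins, 168 ± 10.7 TPM. The authors' deposited table had Trim28 higher (1.62, adjusted p = 1.05e-08) and 3 lower, most of all Nsd1, a methyltransferase for histone H3 lysine 36, with -2.06 (2.38e-30) and 12784 bases. Dppa3 had 0 counts, which allows up to 0.312 TPM.

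The S-adenosylmethionine cycle supplies the methyl group that Dnmt1, Dnmt3a and Dnmt3b transfer, and 11 of its 12 genes were detected. Shmt2 had 125 ± 9.23 TPM and Mat2a, the synthetase of S-adenosylmethionine outside the liver, 88.5 ± 34.4 TPM, with 128, 72.3 and 65.1 in replicates 1 to 3. The liver form Mat1a had 0 counts, which allows up to 0.0868 TPM. By the authors' deposited table, 6 were higher, led by Gnmt with 2.80 (adjusted p = 1.28e-05), and 4 lower, led by Mat2a with -2.36 (8.08e-18), a gene of 4486 bases.

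Of 12 cofactors and regulators of the Tet enzymes, 8 were detected. Idh2 and Idh1, which make the cosubstrate 2-oxoglutarate, had 128 ± 2.77 and 57.8 ± 3.49 TPM. Both were higher in the authors' deposited table, Idh2 by 2.28 (adjusted p = 1.16e-17) and Idh1 by 0.64 (0.00541), and of the list 3 were higher and 3 lower, most of all Slc23a1, a vitamin C transporter, with -1.91 (0.00431). Ogt, the O-GlcNAc transferase that binds Tet2 and Tet3, was singled out after its values were seen: it had 90.2, 17.5 and 12.9 TPM, high in replicate 1 only. Wt1, a partner of Tet2, had 0 counts, which allows up to 0.0449 TPM, and the authors' deposited table gave it 37802 as H3K27me3 value.

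In the base excision and demethylation list, which follows Tdg in the pathway, 14 of 16 genes were detected. The stress-induced Gadd45b and Gadd45g had 130 ± 43.6 and 82.4 ± 41.3 TPM, and both were highest in replicate 1. Of the 15 with an adjusted p-value, 7 were higher in the authors' deposited table (23.6% of all scored genes) and 1 lower (31.9%). The glycosylase Nthl1, of 1080 bases, led there with 3.11 (adjusted p = 2.25e-08). In the authors' deposited table the lower gene was the DNA ligase Lig3, of 7284 bases, with -0.86 (0.00193).

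Mbd2 was not the highest methyl-CpG-binding family transcript. Mbd3, which in mammals lacks selective binding to methylated CpG, had 155 ± 11.2 TPM and Mbd6 63.1 ± 8.67 TPM, against 78.8 ± 3.39 TPM for Mbd2. Of the other 10 readers, 9 were detected. Among them 3 were higher in the authors' deposited table, led by Mbd3 with 3.82 (adjusted p = 9.03e-26), and 4 lower, led by Mbd5 with -2.53 (4.04e-31), a gene of 19632 bases. Of 13 NuRD partners of Mbd2, 12 were detected, led by Mta2 with 165 ± 12.7 TPM and Rbbp7 with 122 ± 13.8 TPM, and the lowest was Chd5 with 0.572 ± 0.260 TPM. Of the 13, 6 were higher in the authors' deposited table, led by Mta2 with 1.57 (adjusted p = 9.05e-11), and 1 was lower, Gatad2b with -3.07 (1.72e-62) and 11443 bases. The 5 readers of unmethylated CpG were all detected, from Cxxc1 with 59.9 ± 24.9 TPM to Kdm2b with 7.29 ± 0.775 TPM. Kmt2b was higher in the authors' deposited table (0.79, adjusted p = 0.000181) and 2 were lower, led by Kmt2a with -1.93 (2.72e-20) and 16670 bases.

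**Figure D4:**
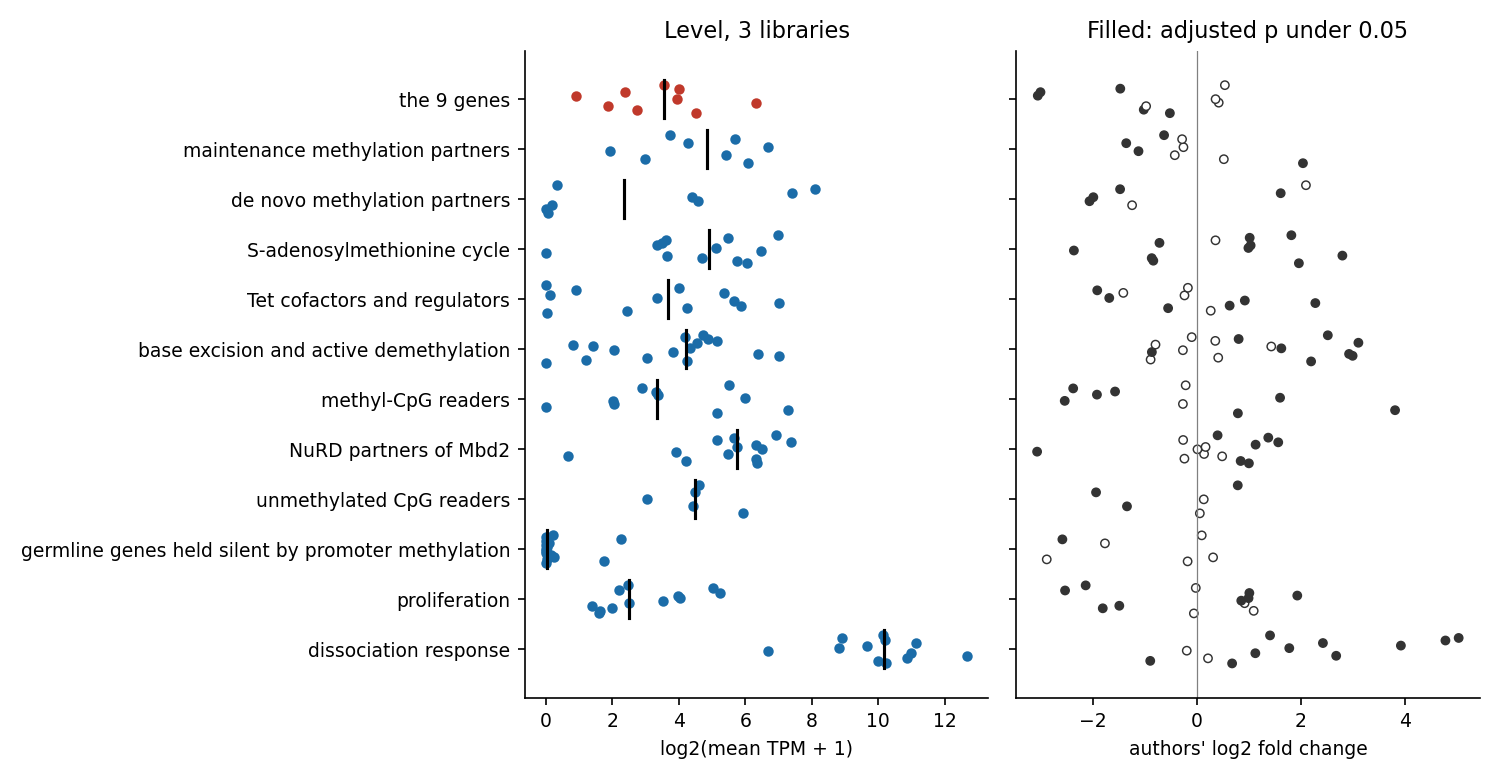
Each point is a gene of the list named at the left: log2 of mean TPM + 1 over the 3 libraries (left, with a bar at the list median) and the authors' log2 fold change (right, filled where the adjusted p-value was under 0.05). The 9 genes range from 0.883 TPM for Tet1 to 78.8 TPM for Mbd2, and none of those past the threshold has a positive fold change.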

How the data were processed

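The authors deposited whole-number read counts and TPM per gene and library, per the file headers. FastQC, SAMtools, TopHat2, DESeq2 and DESeq are listed, per the submitters' processing notes, with builds mm10 and GRCm38. The counting tool and strand setting were not given in the sources used here. The deposited log2 fold change, adjusted p-value and score came from the authors, and the test used was not given. The unit of the deposited H3K27me3 value was not stated. Another 6 per-sample columns matched no sample and were not used. Coordinates came from GENCODE M21 (GRCm38), which held 44392 of 44625 identifiers. For the 55 symbols with several entries, the one with the highest mean TPM was kept. Dispersions were estimated with edgeR 4.0.16 (TMM, filterByExpr, 1 group) and size factors with DESeq2 1.42.0. The dispersion estimate was tested on simulated data. Pairs were tested by exact sign-flip permutation (scipy 1.17.1). No contrast between groups was fitted. The 9 genes and all lists were chosen with earlier results of these data known. Besides the 9 genes, each list is represented by its 2 highest and its lowest gene by mean TPM and by its largest called fold change in each direction. Alternatives covered pseudocount, scaling, filters, thresholds and left-out libraries. Some genes of the lists are counted in them but not reported here by name.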

Additional observations from a re-analysis of the deposited data

How the results depend on the processing

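The 7 ratios were above 0 in every library, so leaving out a library could not turn them. Without division by length (CPM) they kept their direction but changed in size, Dnmt1 against Dnmt3a from 1.80 to 0.79 and Dnmt3a against Dnmt3b from 0.94 to 2.69. With TMM or DESeq2 scaling the 9 mean levels moved by less than 1 SD. The factors were centred over the 3 libraries, so the means could hardly move. This outcome therefore says little about scaling, which did change the values per library. In the deposited TPM, a limit of 0.58 in place of 1 took the genes deviating in replicate 1 from 0 to 1 of the detected genes (Tet2). Of all 9 it was then 2 (Tet1 as well, an alternative chosen after seeing the data). Taking off the median fold change of genes of like length, chosen likewise, left 2 of the 5 called genes below 0, Tet1 and Tet2. The other 3 came to 0.03 (Dnmt1), 0.10 (Tet3) and 0.56 (Dnmt3a), and Dnmt1 to -0.07 against detected genes alone. These signs were not tested, as the adjusted p-values belong to the fold changes before this step. The median of the 9 turned from -0.97 to 0.10 (-0.07 against detected genes alone). The mean of Tet1 ranged from 0.527 to 1.15 TPM over the left-out libraries. At an adjusted p-value under 0.01, 4 of the 5 called genes passed, without Dnmt1 (26.2% of all genes lower, 19.9% higher). The fewest counts behind a value were 79 for Tet1 in replicate 3 and 80 for Dnmt3b in replicate 2. No paired analysis was possible because the samples form 1 group.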

Other observations

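Germline genes known as targets of promoter methylation in somatic cells were low with 2 exceptions. Of 15 such genes, 6 had 0 counts in all 3 libraries, among them Sycp1 and Mael, which allows up to 0.0783 and 0.161 TPM, and 2 were detected, at 1 TPM or more on average. Those were Tdrd1, a Tudor protein of the piRNA pathway, with 3.44, 4.54 and 3.28 TPM, and Brdt, a testis bromodomain protein, with 2.78, 1.73 and 2.51 TPM. Tdrd1 was lower in the authors' deposited table, with a log2 fold change of -2.58 (adjusted p = 5.37e-15) and an H3K27me3 value of 1667. Its gene length is 5443 bases.

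Of 12 proliferation genes 9 were highest in replicate 1 in the deposited TPM, as were 59.6% of all detected genes (42.8% after TMM scaling). Mki67 had 6.71, 1.91 and 2.17 TPM and was highest in replicate 1, whereas Mcm5, a subunit of the replicative helicase, had 12.1, 15.6 and 16.6 TPM and was lowest there, as Uhrf1 was. In the authors' deposited table Mki67 had a log2 fold change of -2.53 (adjusted p = 7.49e-10) and Mcm5 of 1.94 (3.58e-07). Of the 12 genes 4 were higher, against 23.6% of all scored genes, and 4 lower, against 31.9%.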
